A study of Mus musculus with 7 samples.

Results

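The RNA of 9 genes that dispose of ammonia was followed in mouse precision-cut liver slices (PCLS) cultured with or without valproic acid (VPA). They were chosen by name, as the enzymes and transporters of the urea cycle with the enzymes that make and split glutamine, and are 9 of the 55487 genes in the count table. In the cycle itself, Cps1 makes carbamoyl phosphate from ammonia, Otc joins it to ornithine, and Ass1 and Asl form and split argininosuccinate. Nags makes the activator that Cps1 needs, Slc25a15 carries ornithine and Slc25a13 carries aspartate and glutamate across the inner mitochondrial membrane. Glul fixes ammonia into glutamine and Gls2, the liver form of glutaminase, releases it again. Periportal hepatocytes are known for urea synthesis and for Gls2, and the hepatocytes next to the central vein for Glul. VPA, a drug against epilepsy and an inhibitor of histone deacetylases, is known to raise blood ammonia in some patients.

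The slices came from livers of healthy male Balb/c mice aged 12 to 30 weeks, were 250 µm thick and 3 mm wide, and were collected on day 3 of culture. All were kept in Williams' Medium E with added glutamine dipeptide and antibiotics. The 3 CTR libraries came from slices without VPA and the 4 VPA libraries from slices in 2.5 mM VPA. The labels carry a slice culture number, which is 72, 74 and 71 for CTR replicates 1 to 3 and 73, 74, 71 and 72 for VPA replicates 1 to 4. The paper calls a biological repeat a different liver, but the labels do not tie each library to an animal, so the p-values measure only the spread between these libraries. A slice holds all cell types of the liver, so fewer cells of a type and less RNA per cell cannot be told apart.

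Levels are given in CPM, the counts scaled to a common library size after TMM normalization. The libraries held 1400887 to 4773750 counts on genes, so that a gene at 0 may have had as many as 3 counts, or 0.591 to 2.41 CPM, from counting error alone. The CTR libraries had counts on 17744 to 19756 genes and the VPA libraries on 14359 to 16761. Mitochondrial genes took 14.5% to 27.7% of the counts in CTR and 23.9% to 32.5% in VPA. The liver label was checked on 19 hepatocyte markers, of which 16 had enough counts to be tested. Their summed level was 9310 to 23500 CPM in CTR and 6440 to 19800 CPM in VPA, with albumin (Alb) at 827 to 2180 CPM in CTR and 785 to 5070 CPM in VPA. Ttc36 was the hepatocyte marker listed at 0 in every library. Activated stellate cell markers summed to 2270 to 3900 CPM in CTR and 1290 to 1630 CPM in VPA, with 9 of 10 lower in VPA and a median log2 fold change of -0.99. None of these 10 passed the adjusted threshold by edgeR, 4 had an unadjusted p under 0.05 and 4 passed by DESeq2, where 4.62% of all genes tested were lower at that unadjusted p and 3.21% passed by DESeq2 in either direction. Endothelial markers summed to 260 to 290 CPM in CTR and 69.2 to 259 CPM in VPA, with 6 of 7 tested lower and Lyve1 higher. None of these 7 passed the adjusted threshold by edgeR or DESeq2 or had an unadjusted p under 0.05. For Cdh5 and Stab1 the highest VPA value was under the lowest CTR value, which held for 7.41% of all genes tested. Both rest in part on zeros, Cdh5 in VPA replicates 1 and 2 and Stab1 in VPA replicates 1 and 3. Macrophage markers summed to 232 to 293 CPM in CTR and 261 to 406 CPM in VPA, with Adgre1 and Marco at 0 throughout, and cholangiocyte markers to 268 to 616 and 258 to 741 CPM. The part of these differences in the values below was not tested.

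Ass1, which forms argininosuccinate (ENSMUSG00000076441, GRCm38 chr2:31470207-31520672, plus strand), was listed at 0 counts in all 7 libraries. Its processed pseudogene Gm5424 (chr10:62071123-62072362, plus strand) had 5 counts in all. Over the 1240 bases of Gm5424, 1234 (99.5%) matched the Ass1 transcript, and the match ended 1 base after the stop codon. The last 90 coding bases of both are shown because they do not differ. In Ass1 they are followed by another 255 bases up to the end of the transcript, to which the annotated Gm5424 does not extend. The capitals mark the stop codon. In Ass1 the stretch runs from 31518748 to 31520417 over 2 exons, with 44 bases in the first and 46 in the last, and in Gm5424 it is the unspliced run from 62072272 to 62072361.

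Ass1: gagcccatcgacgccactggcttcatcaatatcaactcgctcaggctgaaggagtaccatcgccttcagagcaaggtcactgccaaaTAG

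Gm5424: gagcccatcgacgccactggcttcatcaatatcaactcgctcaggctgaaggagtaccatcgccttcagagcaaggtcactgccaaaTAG

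Of the 451 windows of 50 bases in the last 500 bases of the Ass1 transcript, 130 (28.8%) also occurred in another annotated gene, and over its whole length the share was 55.3%. The other 8 genes shared 0% of the windows at their 3′ end. For Gapdh, a glycolysis enzyme with many pseudogenes, the share at the 3′ end was 90.5% and the level 19.7 to 62.4 CPM. For Actb, the gene of β-actin, the share was 9.31% and the level 4720 to 11400 CPM. How the counting treated reads with several matches is not given in the sources used here, and its part in the zeros of Ass1 was not tested. With no count in any library no fold change is given, and the zeros of Ass1 were not read as absence of its RNA.

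The other 8 genes were counted in at least 5 of the 7 libraries each. Cps1 was at 0 in CTR replicate 2 and VPA replicate 2, Otc in VPA replicate 2, and Nags in CTR replicates 1 and 3. These zeros lie beyond counting error if the level of the other libraries held there. The median of the libraries above 0 would give 33.4 and 21.4 counts of Cps1, 14.2 of Otc, and 72.9 and 52.4 of Nags in the libraries at 0. Zeros of this kind occurred across the table. Among gene and library pairs for which the median level of all libraries predicts 20 to 50 counts, 1308 of 20542 (6.37%) were at 0. The share was 1.96% to 3.3% in the CTR libraries, 13.5% and 11.4% in VPA replicates 1 and 2, and 5.66% and 5.05% in VPA replicates 3 and 4. At 10 to 20 predicted counts it was 11.2% in all, 2.91% to 5.51% in the CTR libraries and 19.6% in VPA replicate 2. At 50 to 100 predicted counts it was 2.74% in all and 0.911% to 1.47% in the CTR libraries. The counts predicted for Nags rest on the libraries above 0, which are CTR replicate 2 and every VPA library. These classes use the median of all libraries, so the zeros of Nags were not placed in them. A zero in a single library was therefore given as a count and not read as absence of the RNA.

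**Figure D1:**
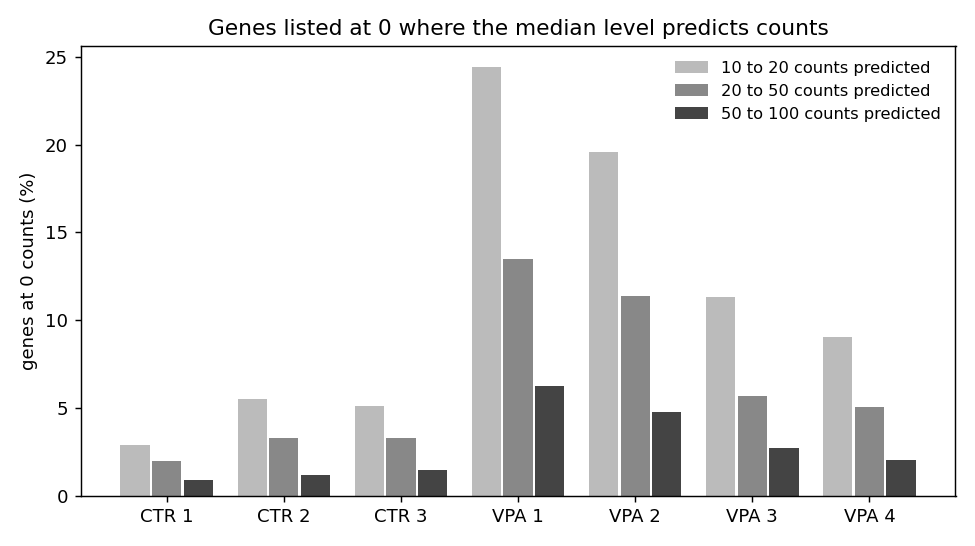
Share of genes at 0 counts (y axis, %) in each library (x axis), for genes whose median level over the libraries predicts 10 to 20, 20 to 50 or 50 to 100 counts there. The 4 VPA libraries had a larger share than the 3 CTR libraries at each depth, and VPA replicate 1 the largest, 24.4% at 10 to 20 predicted counts.

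Expression was compared between VPA and CTR with edgeR's quasi-likelihood test over the 10876 genes with enough counts. Of the 9 genes, 7 were tested, and Otc and Ass1 had too few counts. None of the 7 passed a Benjamini-Hochberg adjusted p of 0.05, where 0.00919% of all genes tested did (1 gene). None had an unadjusted p under 0.05, where 3.65% of all genes were higher and 4.62% lower in VPA by that measure. With DESeq2 on the same genes the adjusted count was also 0, where 3.21% of all genes passed. In none of the 7 did the groups separate without overlap, where all VPA libraries lay above all CTR libraries for 4.44% of genes and below them for 7.41%. The log2 fold change was above 0 for 6 of the 7 and below 0 for Glul, with a median of 0.64, against -0.06 over all genes tested. With 7 genes, 0 calls is close to what these shares give, and the intervals given with each gene show the range of changes compatible with these libraries.

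**Figure D2:**
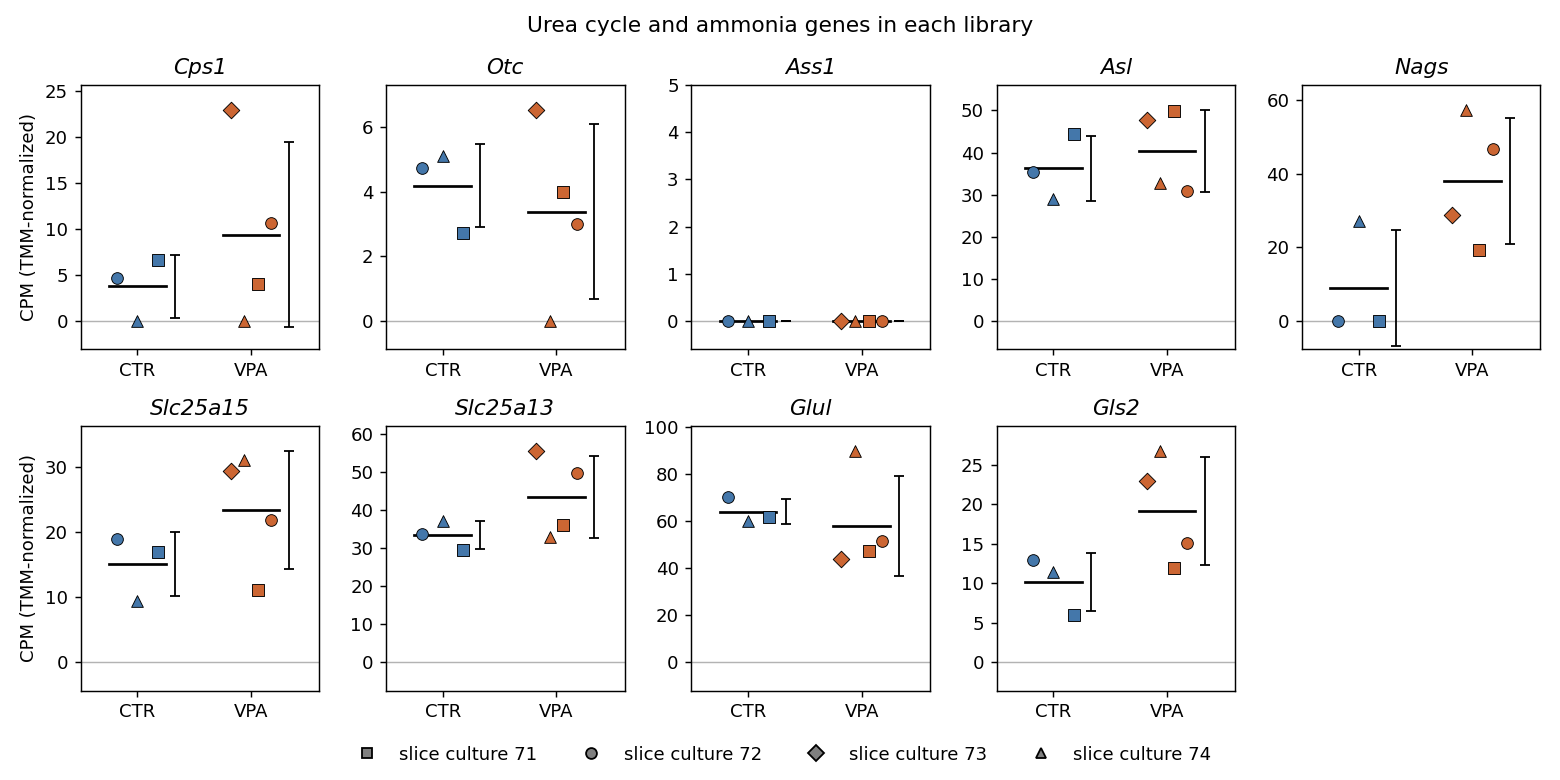
Level of each of the 9 genes (y axis, TMM-normalized CPM, a separate scale in each panel) in the 3 CTR and 4 VPA libraries (x axis), with 1 point per library, its shape the slice culture, the line the mean and the bar 1 SD. The CTR and VPA points overlapped in every panel, and Ass1 was at 0 in all libraries.

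Among the mitochondrial enzymes, Cps1, which catalyses the first and rate-controlling step (ENSMUSG00000025991, chr1:67123026-67231259, plus strand), was low in the slices. It had 4.73, 0 and 6.58 CPM in CTR replicates 1 to 3 and 22.9, 0, 4.01 and 10.6 CPM in VPA replicates 1 to 4, from 0 to 35 counts per library. VPA replicates 1 and 4 lay above every CTR library and the other two within the CTR range. The means were 3.77 ± 3.39 CPM (SD, n = 3) and 9.36 ± 9.99 CPM (SD, n = 4), a log2 fold change of 1.33 ± 1.77 (SE) with a 95% interval from -2.79 to 5.45 (edgeR adjusted p = 0.937). Over the 5 fits that left out 1 library and still tested Cps1, the log2 fold change ran from 0.7 without CTR replicate 2 to 1.96 without CTR replicate 3. Without VPA replicate 1 or 4, the libraries in which it was highest, Cps1 had too few counts to be tested. With this spread between libraries the interval holds both a several-fold rise and a several-fold fall of Cps1.

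Otc, the X-linked enzyme that makes citrulline (ENSMUSG00000031173, chrX:10252305-10321024, plus strand), had 4.73, 5.12 and 2.74 CPM in CTR and 6.53, 0, 4.01 and 3.02 CPM in VPA. VPA replicate 1 was above the CTR range, replicate 2 at 0 and the other two within it. The means were 4.2 ± 1.28 CPM (SD, n = 3) and 3.39 ± 2.7 CPM (SD, n = 4), and with at most 26 counts in a library Otc was not tested.

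Nags, the N-acetylglutamate synthase that supplies the activator of Cps1 (ENSMUSG00000048217, chr11:102145513-102149477, plus strand), differed most between the groups of the 7 with all libraries in the fit, though Cps1 had the larger log2 fold change without CTR replicate 1, CTR replicate 3 or VPA replicate 2. It had 0, 27.2 and 0 CPM in CTR, which was 138 counts in replicate 2 and no count in replicates 1 and 3, and 28.7, 57.2, 19.3 and 46.8 CPM in VPA. Every VPA library had counts of Nags, and VPA replicates 1, 2 and 4 lay above all CTR libraries, while replicate 3 lay below CTR replicate 2. The means were 9.07 ± 15.7 CPM (SD, n = 3) and 38 ± 17.2 CPM (SD, n = 4), a log2 fold change of 2 ± 1.45 (SE) with a 95% interval from -1.39 to 5.39 (edgeR adjusted p = 0.847). The overlap was that of CTR replicate 2 with VPA replicate 3, and leaving out one or the other of these separated the groups. Without CTR replicate 2 the remaining CTR libraries were at 0. Counting error alone would set limits of 1.18 and 1.64 CPM there, but zeros beyond counting error occurred across the table. In that fit the adjusted p by edgeR was 0.236, and the fitted log2 fold change of 9.22 has no measured CTR level behind it. Without CTR replicate 1 or 3 the log2 fold change was 1.43 or 1.44 (edgeR adjusted p = 1 in both). With limma-voom and all libraries the log2 fold change was 3.84 (adjusted p = 0.44). The antisense gene Gm11586, which overlaps 698 bases of Nags, had 0 counts.

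In the cytosol, Asl, which splits argininosuccinate into arginine and fumarate (ENSMUSG00000025533, chr5:130011258-130029247, minus strand), was counted in every library. It had 35.5, 29 and 44.4 CPM in CTR and 47.7, 32.9, 49.8 and 31 CPM in VPA. VPA replicates 1 and 3 lay above the CTR libraries and replicates 2 and 4 among them. The means were 36.3 ± 7.75 CPM (SD, n = 3) and 40.3 ± 9.76 CPM (SD, n = 4), a log2 fold change of 0.15 ± 0.281 (SE) with a 95% interval from -0.5 to 0.81 (edgeR adjusted p = 0.955).

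Both mitochondrial carriers had a higher mean in VPA, by less than the test could separate. Slc25a15, the ornithine carrier (ENSMUSG00000031482, chr8:22375551-22398597, minus strand), had 18.9, 9.46 and 17 CPM in CTR and 29.4, 31.1, 11.2 and 21.9 CPM in VPA. VPA replicate 3 lay within the CTR range and the other VPA libraries above it. The means were 15.1 ± 5 CPM (SD, n = 3) and 23.4 ± 9.03 CPM (SD, n = 4), a log2 fold change of 0.64 ± 0.468 (SE) with a 95% interval from -0.45 to 1.73 (edgeR adjusted p = 0.847).

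Slc25a13, the aspartate and glutamate carrier also called citrin (ENSMUSG00000015112, chr6:6041218-6217173, minus strand), had 33.9, 37.1 and 29.6 CPM in CTR and 55.5, 32.9, 36.1 and 49.8 CPM in VPA. VPA replicates 1 and 4 were above the CTR libraries and replicates 2 and 3 among them. The means were 33.5 ± 3.74 CPM (SD, n = 3) and 43.6 ± 10.8 CPM (SD, n = 4), a log2 fold change of 0.37 ± 0.264 (SE) with a 95% interval from -0.24 to 0.99 (edgeR adjusted p = 0.831).

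Glul, the glutamine synthetase of perivenous hepatocytes (ENSMUSG00000026473, chr1:153899944-153909723, plus strand), had 70.1, 59.9 and 61.9 CPM in CTR and 43.7, 89.5, 47.4 and 51.4 CPM in VPA. VPA replicates 1, 3 and 4 lay below every CTR library and VPA replicate 2 above every one. The means were 64 ± 5.41 CPM (SD, n = 3) and 58 ± 21.2 CPM (SD, n = 4), a log2 fold change of -0.13 ± 0.281 (SE) with a 95% interval from -0.79 to 0.52 (edgeR adjusted p = 0.961). Leaving out 1 library at a time, the log2 fold change ran from -0.42 without VPA replicate 2 (edgeR adjusted p = 0.679) to -0.01 without VPA replicate 1 (edgeR adjusted p = 0.997). Over the whole transcript, 14.2% of the 50-base windows of Glul also occurred in other genes, but none in its last 500 bases.

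Gls2, the glutaminase that returns ammonia from glutamine (ENSMUSG00000044005, chr10:128194457-128210004, plus strand), had 13, 11.4 and 6.03 CPM in CTR and 22.9, 26.7, 12 and 15.1 CPM in VPA. VPA replicate 3 lay below CTR replicate 1, and the other VPA libraries lay above all of CTR. The means were 10.2 ± 3.66 CPM (SD, n = 3) and 19.2 ± 6.79 CPM (SD, n = 4), a log2 fold change of 0.91 ± 0.492 (SE) with a 95% interval from -0.23 to 2.06 (edgeR unadjusted p = 0.102, adjusted p = 0.709). Gls2 overlaps 97 bases of Spryd4 at its 3′ end on the other strand, which had 286 counts in all. Since the use of strand in the counting is not known, the values of Gls2 are uncertain.

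**Figure D3:**
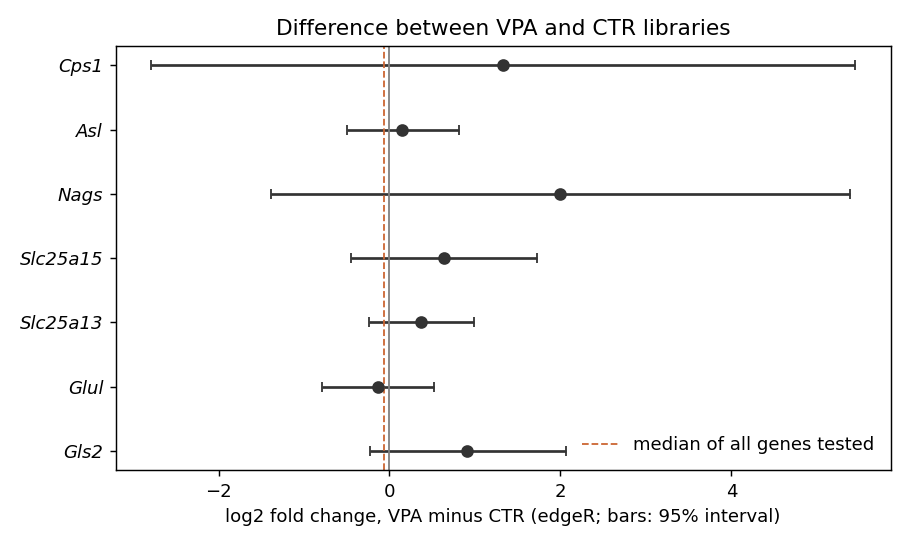
Log2 fold change between VPA and CTR (x axis, positive where VPA is higher) of the 7 tested genes (y axis), with edgeR's 95% intervals as bars and the median of all genes tested as a dashed line. Every interval crosses 0, and those of Cps1 and Nags are the widest, from -2.79 to 5.45 for Cps1.

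The slice culture number let a VPA library be set beside the CTR library of the same number in 3 cases. In cultures 71, 72 and 74, Nags was higher in VPA by 4.59, 5.84 and 1.05 log2 CPM, and Gls2 by 0.91, 0.2 and 1.17. These were the 2 tested genes of 7 that were higher in all 3 cultures, as were 14.9% of all genes tested. The CTR library of Nags was at 0 in cultures 71 and 72, so the size of those differences is set by the prior count of 2. Their direction rests on these zeros, which were not read as absence of the RNA. Slc25a15 differed by -0.56, 0.2 and 1.63, Slc25a13 by 0.28, 0.55 and -0.17 and Asl by 0.16, -0.19 and 0.18. Glul differed by -0.38, -0.44 and 0.57. Cps1 differed by -0.61, 1.04 and 0 and Otc by 0.44, -0.53 and -2.84, with both libraries of Cps1 and the VPA library of Otc at 0 in culture 74. Apart from Nags and Gls2 the sign thus changed between cultures.

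**Figure D4:**
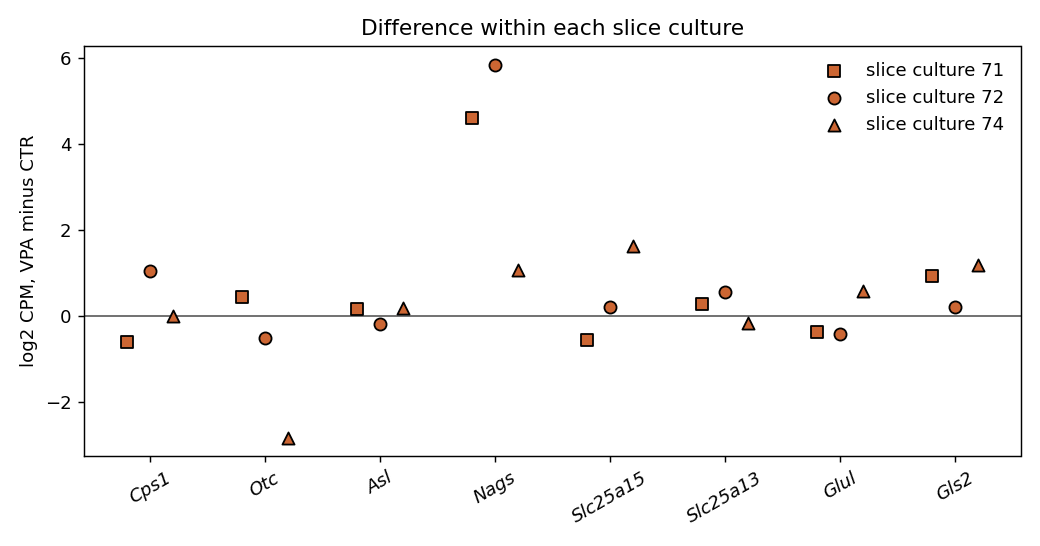
Difference in log2 CPM between the VPA and the CTR library of the same slice culture number (y axis), for 8 genes (x axis), with 1 symbol per culture. The 3 points of Nags and of Gls2 lie above 0, from 1.05 to 5.84 and from 0.2 to 1.17, with the size for Nags set by the prior count where CTR was at 0, and the points of the other genes lie on both sides or, for Cps1, at 0 in one culture.

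The mean level of the hepatocyte markers was 7.16, 7.4 and 8.14 log2 CPM in CTR and 8.4, 7.65, 8.19 and 6.91 in VPA, so that the groups overlapped and both the highest and the lowest library were VPA ones.

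Each gene was also expressed relative to the mean log2 CPM of the 16 hepatocyte markers of its own library. Nags was then 3.51 log2 units higher in VPA, with the VPA libraries between -3.86 and -1.33 and the CTR libraries between -8.4 and -2.59 (two-sided exact permutation test, p = 0.114). With CTR replicates 1 and 3 at 0, the size of this difference depends on the prior count, and it was 4.81 with a prior count of 0.5 and 2.69 with one of 5. Gls2 was higher by 0.64 (exact permutation p = 0.457), which was 0.05 without CTR replicate 3, Cps1 by 0.6 (p = 0.657), Slc25a15 by 0.34 (p = 0.657) and Slc25a13 by 0.13 (p = 0.857). Glul differed by -0.42 (exact permutation p = 0.514) and Asl by -0.08 (p = 0.714). These 7 tests are unadjusted, and 0.0286 is the smallest p that 3 libraries against 4 allow. For no gene did the scaling to hepatocyte markers separate the groups.

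The neighbouring reactions that feed the cycle with glutamate, aspartate and ornithine were read from a list of 15 genes. Of these, 9 were tested, 6 with a log2 fold change above 0 and 3 below, with a median of 0.27. None passed the adjusted threshold by edgeR, while Got1 had an unadjusted p under 0.05 and passed by DESeq2, where 3.65% of all genes tested were higher at that p and 3.21% passed by DESeq2. Glud1, glutamate dehydrogenase, had 538 ± 427 CPM in CTR (SD, n = 3) and 247 ± 147 CPM in VPA (SD, n = 4), with a log2 fold change of -1.12 (edgeR adjusted p = 0.744). Its levels ranged from 159 to 1000 CPM in CTR and from 119 to 455 CPM in VPA, so the groups overlapped. Got2, the mitochondrial aspartate aminotransferase, lay at 194 to 203 CPM in CTR and 168 to 225 CPM in VPA. Slc25a2 and Slc25a18 were at 0 throughout.

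Got1, the cytosolic aspartate aminotransferase, had 19.3, 16.8 and 20.3 CPM in CTR and 82.9, 55.7, 32.9 and 35.5 CPM in VPA. All VPA libraries lay above all CTR libraries, as for 4.44% of all genes tested, with a log2 fold change of 1.47 ± 0.376 (SE), and Got1 did not pass the test by edgeR (unadjusted p = 0.00502, adjusted p = 0.336). The adjusted p was 0.00661 by DESeq2 on the same genes, 0.0844 by DESeq2 on all genes with a count and 0.225 by limma-voom.

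Of 15 transporters of amino acids and urea, 9 were tested, with 4 above 0, 5 below 0 and a median log2 fold change of 0. Slc38a2, a glutamine transporter, had 156 to 204 CPM in CTR and 153 to 217 CPM in VPA. Slc3a2, the heavy chain of several amino acid exchangers, had 118 to 249 and 119 to 244 CPM, and Slc38a4, an amino acid transporter of hepatocytes, 56.8 to 91 and 54.6 to 88.4 CPM. The ammonia channels Rhbg and Rhcg, the urea transporter Slc14a1 and the glutamine transporter Slc38a5 were at 0 in every library. Of 28 genes that break down amino acids, 16 were tested, with 9 above 0, 7 below 0 and a median of 0.05. Tdo2, which opens the tryptophan ring, had 185 to 514 CPM in CTR and 197 to 555 CPM in VPA, Hal, which removes ammonia from histidine, 61.9 to 140 and 50.6 to 80.8 CPM, and Gcsh, a subunit of the glycine cleavage system, 52.8 to 58.1 and 40 to 71.8 CPM. Sds, serine dehydratase, was at 0. The groups overlapped for each of these genes that had counts. In each list 1 tested gene, picked after its values were seen, had all VPA libraries below all CTR libraries, as did 7.41% of all genes tested. Aqp8, a water and ammonia channel, had 36.6, 52.4 and 74 CPM in CTR and 22.9, 0, 32.1 and 0 CPM in VPA. Sdsl, a relative of serine dehydratase, had 13.4, 7.29 and 12.6 CPM in CTR and 0, 6.15, 0 and 0 CPM in VPA. Both rest in part on zeros in VPA libraries, and in neither list did a gene pass the adjusted threshold by edgeR or DESeq2 or reach an unadjusted p under 0.05.

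Of 14 genes that use arginine or ornithine for nitric oxide and polyamines, 9 were tested, with 2 above 0, 7 below 0 and a median log2 fold change of -0.28. Oaz1, the antizyme that limits ornithine decarboxylase, had 179 to 198 CPM in CTR and 114 to 214 CPM in VPA. Amd1, which makes the aminopropyl donor of polyamines, had 106 to 134 CPM in CTR and 84.9 to 134 CPM in VPA. Sat1, which acetylates polyamines for export, had 64.2, 45.7 and 54.3 CPM in CTR and 75.7, 65.5, 75.5 and 68 CPM in VPA. Every VPA library of Sat1 lay above every CTR library, as for 4.44% of all genes tested, with a log2 fold change of 0.38 ± 0.184 (SE), and it did not pass the test (edgeR unadjusted p = 0.0751, adjusted p = 0.66). Srm, the spermidine synthase, which was picked after its values were seen, had 63, 64.8 and 80 CPM in CTR and 0, 45.2, 53.8 and 47.6 CPM in VPA. Every VPA library of Srm lay below every CTR library, as for 7.41% of all genes tested, with VPA replicate 1 at 0 and a log2 fold change of -0.92 ± 0.945 (SE, edgeR adjusted p = 0.91). No gene of this list passed the adjusted threshold by edgeR or DESeq2 or reached an unadjusted p under 0.05. Nos2, the inducible nitric oxide synthase, was at 0.

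Of 13 transcription factors and receptors known to act on urea cycle genes, 10 were tested, with 7 above 0, 3 below 0, a median log2 fold change of 0.13 and none past the adjusted threshold by edgeR. Atf4, the factor of the amino acid response, had 464 to 696 CPM in CTR and 360 to 639 CPM in VPA, Hnf4a, a master factor of hepatocytes, 41.6 to 146 and 49.8 to 186 CPM, and Creb1, a factor downstream of cyclic AMP, 52 to 89.4 and 72.6 to 85.3 CPM. The groups overlapped in all 3. Ppargc1a, a coactivator of the fasting response that was picked after its values were seen, had 4.33, 3.35 and 10.4 CPM in CTR and 17, 18.8, 22.5 and 23.4 CPM in VPA. All VPA libraries of Ppargc1a, 1 of the 10 tested, lay above all CTR libraries, as for 4.44% of all genes, with a log2 fold change of 1.77 ± 0.546 (SE, edgeR unadjusted p = 0.0127, adjusted p = 0.447). Its adjusted p was 0.0141 by DESeq2 on the same genes, 0.136 by DESeq2 on all genes with a count and 0.188 by limma-voom, where 3.65% of all genes were higher at an unadjusted p under 0.05 and 3.21% passed by DESeq2 on the same genes.

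Genes of the liver zones were read because urea synthesis and glutamine synthesis lie in different ones. Of 12 periportal genes other than the urea cycle, 8 were tested, with 4 above 0, 4 below 0 and a median of 0.01. The range of Alb is given above with the hepatocyte markers, Hal is described with the enzymes of amino acid breakdown, and Cdh1, the E-cadherin of periportal hepatocytes, had 52.6 to 68 CPM in CTR and 62 to 118 CPM in VPA. Aldh1b1, a mitochondrial aldehyde dehydrogenase picked after its values were seen, had 7.09, 6.5 and 4.39 CPM in CTR and 37.2, 15.4, 20.1 and 17.4 CPM in VPA. All its VPA libraries lay above all CTR libraries, with a log2 fold change of 1.89 ± 0.502 (SE, edgeR unadjusted p = 0.00603, adjusted p = 0.351). Its adjusted p was 0.00699 by DESeq2 on the same genes, 0.0722 by DESeq2 on all genes with a count and 0.262 by limma-voom. Of 14 perivenous genes other than Glul, 7 were tested, with 5 above 0, 2 below 0 and a median of 0.78. Cyp1a2, a drug-metabolizing enzyme, had 25.2 to 121 CPM in CTR and 8.31 to 156 CPM in VPA, Cyp2e1, which metabolizes ethanol, 0 to 39.2 and 16.1 to 69.9 CPM, and Gulo, the last enzyme of vitamin C synthesis, 12.6 to 19.2 and 13.6 to 36.9 CPM. The groups overlapped for these perivenous genes. Tbx3, a transcription factor picked after its values were seen, had 12.6, 9.86 and 8.22 CPM in CTR and 18.3, 21.8, 15.3 and 18.9 CPM in VPA, all above CTR (log2 fold change 0.86, edgeR adjusted p = 0.639). No gene of either zone passed the adjusted threshold by edgeR, and Aldh1b1 was the only one with an unadjusted p under 0.05 or a pass by DESeq2, against 3.65% of all genes higher at that p and 3.21% past DESeq2. Aldh1b1 and Tbx3 had all VPA libraries above all CTR libraries, against 4.44% of all genes. The median over all genes tested was -0.06. Hsd17b6 and Sds among the periportal genes, and Rhbg and Axin2 among the perivenous ones, were at 0 in every library.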

How the data were processed

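The authors made QuantSeq 3′ libraries, mapped the reads to GRCm38 (mm10 in the submitters' processing notes) with STAR and used StringTie, and deposited raw counts per Ensembl gene, 1 column per library, without normalization. The counting program and its treatment of strand and of reads with several matches are not given in the sources used here. Reads come from the 3′ end, so counts do not grow with gene length. Groups, replicates and slice culture numbers came from the labels, and 0 columns of per-sample values were left unused. Symbols and coordinates came from GENCODE M21 on GRCm38 (55227 genes with a symbol, 260 without), and the sequences from its transcripts.

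In R 4.3.3, edgeR 4.0.16 (TMM, filterByExpr, robust quasi-likelihood test, condition as the only term) was the main test, run on 10876 genes. A Benjamini-Hochberg adjusted p under 0.05 was called. The study names DESeq2, which was an alternative (DESeq2 1.42.0), as was limma-voom (limma 3.58.1). A prior count of 2 was used for log2 CPM. Single values relative to hepatocyte markers were compared by exact permutation (two-sided) of the 35 ways to divide 7 libraries into 3 and 4. Intervals are 95% and cover the spread between libraries. Depth was 1400887 to 4773750 counts per library.

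The 9 genes are all described, 1 further gene of the group is not reported here, and of each further list the 3 genes of highest mean CPM and any gene past the threshold are named. The genes and lists were chosen with earlier results of these data known. Other alternatives were RLE and upper quartile normalization, other filters, no robust dispersion, the replicate block, other prior counts, a shorter hepatocyte list and leaving out each library. The code was tested on simulated data. Replicate pairs within a group differed by more than sampling noise, so each library counts as 1. The human slices and the protein and imaging experiments were not analysed here.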

Additional observations from a re-analysis of the deposited data

Results flagged for a closer look

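Glul in the VPA libraries was singled out because VPA replicate 2, at 89.5 CPM, lay far above the other VPA libraries at 43.7, 47.4 and 51.4 CPM. The gap to its nearest neighbour was 0.834 of the group's range in CPM, past Dixon's 95% critical value for 4 samples, and 0.777 on the log2 scale, which is not past it. It was 1 of 8 groups examined on the CPM scale, and 0 of 15 were past it on log2 scales. Chance gives about 1 in 20 such groups.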

How the results depend on the processing

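No gene of the 9 was called in any fit that tested it, whether by normalization, filter, tool, replicate block or a left-out library, including DESeq2 on all genes with a count, which was added after seeing the data. At an unadjusted p under 0.05, limma-voom gave 2 (Slc25a15 and Gls2), DESeq2 1 (Gls2), a filter of at least 10 counts in every library 1 (Gls2) and the fit without CTR replicate 2 1 (Nags), where 15.1%, 13.1%, 14% and 7.44% of all genes were at that p. Leaving out 1 library at a time, 0 to 3 genes had groups without overlap: Gls2 without CTR replicate 1, Nags without CTR replicate 2, Glul (lower in VPA) without VPA replicate 2, and Nags, Slc25a15 and Gls2 without VPA replicate 3. In these sets all VPA libraries lay above all CTR libraries for 5.92%, 8.63%, 6.85% and 7.44% of all genes, and below them for 10.3% without VPA replicate 2. Relative to hepatocyte markers, with 1 library left out, Cps1 ran from -0.3 to 1.48, Asl from -0.26 to 0.12, Slc25a13 from -0.24 to 0.34, Nags from 2.38 to 5.29, Gls2 from 0.05 to 1.04, Slc25a15 from 0.05 to 0.78 and Glul from -0.72 to -0.1. No sign changed with other prior counts or a shorter hepatocyte list. The cause was not tested. Over all genes, 1 was called by edgeR, 348 by DESeq2 on the same genes, 154 by DESeq2 on all genes with a count, 10 without a filter, 36 with at least 10 counts in every library, 0 with either block and 0 to 2 without 1 library. The replicate block called 0 of the genes by slice culture and 0 by replicate number. Libraries of the same slice culture had correlations of 0.107, 0.0256 and 0.0546 between their deviations from the group mean, and those of the same replicate number -0.0539, 0.0546 and 0.107. Not every pair passed 0.1 and the labels do not say what the numbers mark, so they were not taken as pairs, and whether libraries of the same slice culture share a liver is not known. With the block by slice culture the log2 fold change was 4.27 for Nags (edgeR adjusted p = 0.642) and 0.23 for Cps1 (edgeR adjusted p = 0.963). It was 0.46 for Slc25a15, 0.22 for Slc25a13 and 0.05 for Asl. Without a block and with 1 library left out, it ran from 0.38 to 0.86 for Slc25a15 and from 0.24 to 0.5 for Slc25a13. For Asl it then ran from 0 to 0.3 and for Gls2 from 0.63 to 1.11. By edgeR, Otc was tested only without a filter or without CTR replicate 3, and Ass1 in no fit. Cps1 and Nags were not tested with at least 10 counts in every library, nor Cps1 without VPA replicate 1 or 4. Cps1 and Otc had at most 35 counts in a library.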
